A study of Homo sapiens with 4 samples.

Results

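The proteasome genes were followed in NUGC3 cells, an established line from a human stomach cancer, after knockdown of NIPBL, the protein that loads the cohesin ring onto chromosomes. The members were the rows of the deposited table with an Ensembl gene identifier, the biotype protein-coding and a symbol made of PSMA, PSMB, PSMC, PSMD, PSME, PSMF or PSMG and a number. This rule uses no measured value and took 51 rows of 53777 Ensembl rows, with 49 distinct symbols. There were 2 NIPBL knockdown libraries, 1 with shNIPBL#1 (hairpin 1) and 1 with shNIPBL#7 (hairpin 7), and 2 libraries of cells transfected with scramble. Scramble 2 carries the same label as scramble 1 plus the suffix R1, possibly a repeat of it. The labels give no time or selection, and the words DOX and combined that all 4 carry are not explained there. The knockdown group is thus 2 different hairpins with 1 library each, and separate cultures are not stated for either group, so a p-value here reflects spread among the 4 libraries alone, and that spread may be technical.

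The proteasome degrades proteins tagged with ubiquitin. Its 20S core is a barrel of alpha rings, which gate the entrance, and beta rings, which hold the cutting sites on PSMB5, PSMB6 and PSMB7. The 19S cap, built of PSMC ATPases and PSMD subunits, binds and unfolds the tagged proteins. Interferon induces PSMB8, PSMB9 and PSMB10, which replace the constitutive cutting subunits to form the immunoproteasome, and PSME1 and PSME2, which form the PA28 cap. Both are known for making peptides that HLA class I molecules present.

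Values are the authors' FPKM, a read abundance corrected for transcript length and for the size of the library. They summed to between 682076 and 749446 per library, with the lowest sum for hairpin 7, and the read depth is unknown. NIPBL fell to 7.27 FPKM with hairpin 1 and 9.17 FPKM with hairpin 7, against 23.92 and 23.11 FPKM in the scramble libraries (log2 change -1.42 ± 0.14, SE, limma, adjusted p = 0.0218). Without scramble 1 the log2 change was -1.39 and without scramble 2 it was -1.44, with adjusted p of 0.257 and 0.261 (limma). In these smaller fits 0 of 12834 genes were called, and 1060 and 1052 had an unadjusted p under 0.05. In bulk RNA, fewer cells with a transcript and less of it per cell cannot be told apart. The epithelial markers EPCAM, KRT8, KRT18, KRT19 and CDH1 were all expressed, with summed levels of 4077 to 5041 FPKM in knockdown and 5045 to 5101 FPKM in scramble libraries. The lowest sum was that of hairpin 1. EPCAM, KRT8 and KRT18 had both hairpins below scramble, as 30.8% of all genes tested had. KRT19 and CDH1 had both above, as 29.5% had. KRT19 was at 982 and 1062 FPKM in knockdown and 655 and 661 FPKM in scramble libraries (limma, adjusted p = 0.0616). The 5 fibroblast markers summed to 7.37 to 9.59 FPKM in knockdown and 5.76 to 6.57 FPKM in scramble libraries, nearly all of it COL1A1, and COL1A2 was listed at 0 in all 4. The part of these markers in the results was not tested. The 4 gastric lineage markers were near 0. TFF1 was the highest, at 2.48 and 1.02 FPKM in knockdown libraries and at 0 and 0.17 FPKM in scramble libraries, while MUC5AC and CLDN18 stayed under 0.1 FPKM in all 4. Leukocytes carry immunoproteasomes without induction. Their 5 markers summed to 0.31 to 1.14 FPKM in knockdown and 0.80 to 0.88 FPKM in scramble libraries, and PTPRC was listed at 0 in all 4.

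No proteasome gene passed the test between the groups. Of 51 rows, 48 reached a 4-library mean of 1 FPKM and were tested. In limma over 12834 genes, 0 of them were higher, against a background of 1.45%, and 0 were lower, against 1.11%, at an adjusted p under 0.05. At an unadjusted p under 0.05, 0 of 48 were higher, where 13.6% of all genes tested were, and 7 were lower, where 12.8% of all genes tested were. These 7 were PSMA6, PSMG1, PSMB5, PSMD7, PSME3, PSMG3 and PSMG4. The adjusted p of the tested rows lay between 0.118 and 0.998. The median log2 change was -0.08 over the 48 rows and -0.01 over all genes tested, and the median size of a change regardless of sign was 0.12 for the members and 0.23 for all genes. The 2 scramble libraries also differed less for the members. The SD of their log2 difference was 0.07 for the members and 0.28 for all genes, and its median size 0.05 and 0.07.

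As deposited, the 2 hairpins often lay on opposite sides of the scramble libraries among the members, with a count that depended on the scaling. In 25 of 48 rows hairpin 1 was above both scramble libraries and hairpin 7 below both, where 10.7% of all genes tested did so. It was the other way round in 0 of 48 rows, and in 1066 of all 12834 genes tested. Hairpin 7 was below hairpin 1 in 42 of 48 rows, against 53.9% of all genes. The median of the members was 0.08 with hairpin 1 and -0.21 with hairpin 7 on the log2 scale, beside 0.0071 and -0.03 over all genes tested. Both hairpins lay below both scramble libraries in 12 rows, against 30.8% of all genes, and above both in 3 rows, against 29.5%. Since each hairpin is 1 library, whether this difference between hairpins would repeat was not tested.

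The scaling between libraries moves the count. With the Ensembl rows of each library rescaled to the same sum, 15 of 48 rows had hairpin 1 above and hairpin 7 below, against 5.99% of all genes. This rescaling raised the median of all genes with hairpin 7 to 0.08, and that of the members with hairpin 7 was then -0.09. Hairpin 7 was then below hairpin 1 in 39 of 48 rows, against 38.1% of all genes. With quantile normalization 19 of 48 rows held the pattern, against 9.58% of all genes, and with centring on the median 26 did, against 11.0%.

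**Figure D1:**
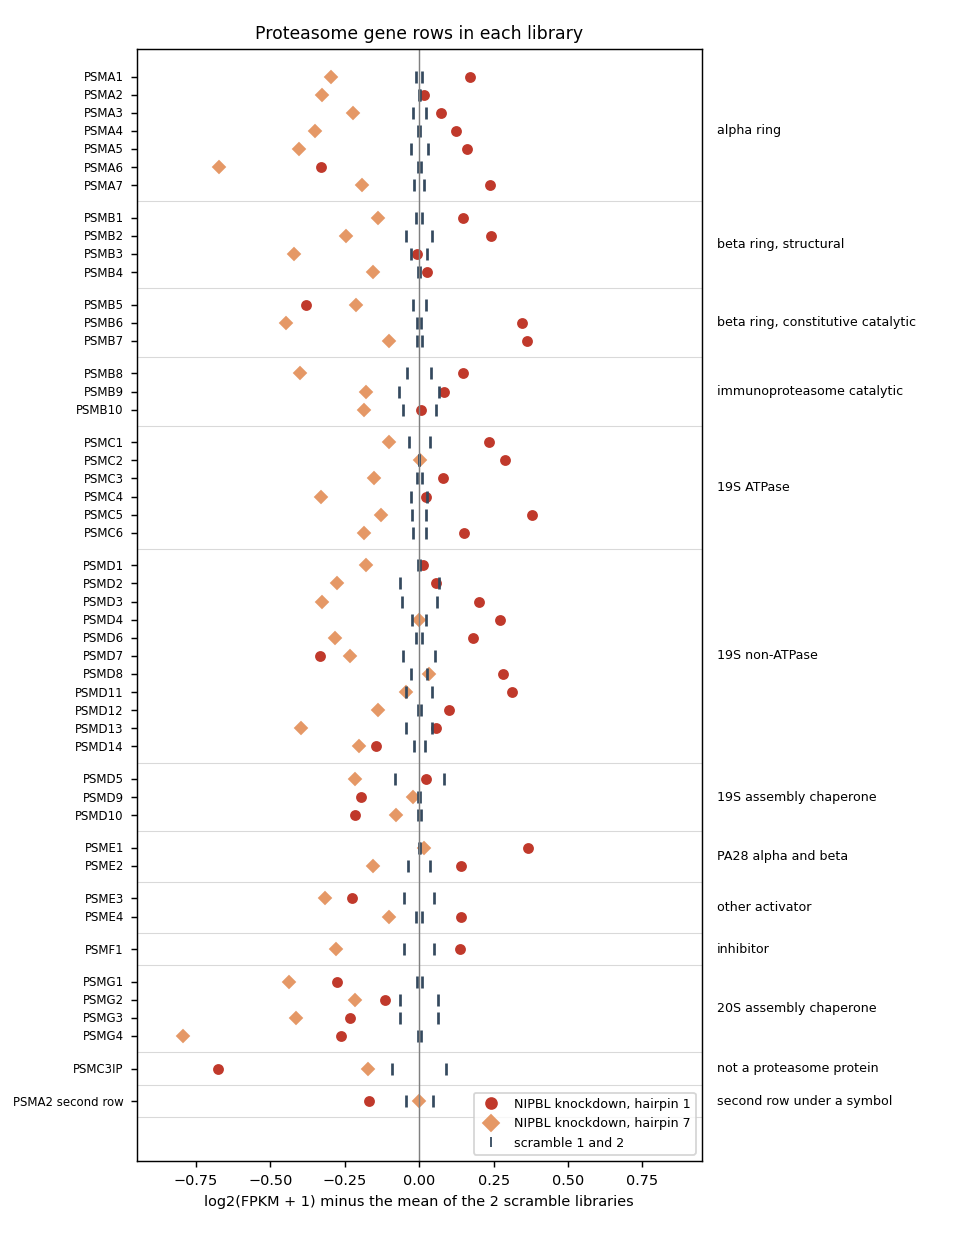
Log2(FPKM + 1) of each tested proteasome gene row minus the mean of its 2 scramble libraries, with hairpin 1 as circles, hairpin 7 as diamonds and the scramble libraries as vertical ticks, grouped by role. Hairpin 7 lies left of hairpin 1 in 42 of 48 rows, against 53.9% of all genes tested. All 4 genes of the 20S assembly chaperones have both hairpins left of the scramble libraries, against 30.8% of all genes tested.

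Taken 1 hairpin at a time, with the lone library assumed to vary like the scramble libraries, some members passed the threshold. All the spread in these fits came from the scramble libraries, of which 1 is possibly a repeat of the other. That spread may be technical only, so the calls below cannot show a change that would hold in separate cultures. These fits used the values as deposited, where hairpin 7 had the lowest sum, and were not repeated under the other scalings. With hairpin 1 alone, 9 of 48 rows were higher, against 11.1% of all genes, and 5 were lower, against 11.6% (limma, adjusted p between 0.0217 and 0.0494). The higher ones were PSMA7, PSMB6, PSMB7, PSMC2, PSMC5, PSMD4, PSMD8, PSMD11 and PSME1, and the lower ones PSMA6, PSMB5, PSMC3IP, PSMD10 and PSMG1. With hairpin 7 alone, 23 of 48 were lower, against 19.6%, and 0 were higher, against 15.7% (limma, adjusted p of the called between 0.00873 and 0.0474). PSMA6, PSMB5 and PSMG1 were in both lists of lower genes. PSMA7 and PSMB6 were called higher with hairpin 1 and lower with hairpin 7.

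The immunoproteasome genes were expressed in scramble cells and showed no change that passed the test. PSMB8, which replaces PSMB5 at the chymotrypsin-like site, was at 50.94 FPKM with hairpin 1 and 34.46 FPKM with hairpin 7, against 47.19 and 44.57 FPKM in the scramble libraries. PSMB9, which replaces PSMB6, was at 65.82 and 54.77 FPKM in the knockdown libraries, against 59.22 and 65.04 FPKM in the scramble libraries. PSMB10, which replaces PSMB7, was at 20.81 and 18.12 FPKM in the knockdown libraries, against 21.58 and 19.93 FPKM in the scramble libraries. For PSMB8 and PSMB9 the hairpins lay on either side of the scramble values, and hairpin 1 lay between them for PSMB10. The log2 changes were -0.13 for PSMB8 (95% interval -0.64 to 0.39), -0.05 for PSMB9 (-0.38 to 0.28) and -0.09 for PSMB10 (-0.39 to 0.21), with adjusted p of 0.717, 0.843 and 0.657 (limma). PSMB8 and PSMB9 overlap each other and an antisense gene, PSMB8-AS1, in GENCODE 29, and PSMB9 overlaps TAP1 as well, so reads in the shared stretches cannot be told apart without a strand setting.

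PSME1 and PSME2, the alpha and beta chains of PA28, were expressed well above the immune cutting subunits on the FPKM scale. PSME1 was at 240.90 FPKM with hairpin 1 and 188.89 FPKM with hairpin 7, against 187.06 and 186.45 FPKM in the scramble libraries. PSME2 was at 177.46 and 144.34 FPKM in the knockdown libraries, against 156.71 and 165.10 FPKM in the scramble libraries. Both hairpins lay above scramble for PSME1, as in 29.5% of all genes tested, by little with hairpin 7. Its log2 change was 0.19 (95% interval -0.18 to 0.56, limma, adjusted p = 0.437), and that of PSME2 was -0.0071 (-0.35 to 0.33, adjusted p = 0.977). Against the scramble mean, hairpin 1 was 129% for PSME1 and hairpin 7 was 101%.

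The promoters of these 5 genes are shown because interferon induction is what sets them apart from the constitutive subunits. RefSeq (GRCh38.p14) gave a promoter window, which runs from 250 bases before an annotated start to 50 bases from it on, for 43 of the members, in 53 windows. The windows were searched on both strands for GAAANNGAAA, a pattern of interferon response elements. It was in 1 window each of PSMB8, PSMB10, PSME1 and PSME2, so in 4 of the 6 windows of the 5 genes, and in 3.57% of all 35116 windows in the table. Of the 32 windows of constitutive subunits 2 held it, those of PSMA4 and PSMB4, and PSMG4 had 1 as well. These 32 windows cover 26 of the 31 constitutive subunits, and PSMB6 and PSMB7 are among those without a window. A further window of PSMB8 (chr6:32844630-32844929, minus strand) had no match and is not printed. The other windows of the 5 genes are printed 5′ to 3′ on the strand of the gene, with a match in capitals:
PSMB8 (chr6:32843998-32844297, minus strand): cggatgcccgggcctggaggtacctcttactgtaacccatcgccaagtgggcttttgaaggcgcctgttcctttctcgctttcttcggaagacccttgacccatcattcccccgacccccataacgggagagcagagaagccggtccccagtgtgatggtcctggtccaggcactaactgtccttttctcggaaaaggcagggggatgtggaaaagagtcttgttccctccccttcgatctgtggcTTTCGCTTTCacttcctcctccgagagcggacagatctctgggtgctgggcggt
PSMB9 (chr6:32853942-32854241, plus strand): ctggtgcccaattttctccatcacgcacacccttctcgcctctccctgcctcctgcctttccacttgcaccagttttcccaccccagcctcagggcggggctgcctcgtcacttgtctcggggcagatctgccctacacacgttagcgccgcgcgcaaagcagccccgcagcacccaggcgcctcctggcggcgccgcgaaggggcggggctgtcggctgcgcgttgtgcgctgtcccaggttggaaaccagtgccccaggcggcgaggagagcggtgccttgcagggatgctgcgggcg
PSMB10 (chr16:67936801-67937100, minus strand): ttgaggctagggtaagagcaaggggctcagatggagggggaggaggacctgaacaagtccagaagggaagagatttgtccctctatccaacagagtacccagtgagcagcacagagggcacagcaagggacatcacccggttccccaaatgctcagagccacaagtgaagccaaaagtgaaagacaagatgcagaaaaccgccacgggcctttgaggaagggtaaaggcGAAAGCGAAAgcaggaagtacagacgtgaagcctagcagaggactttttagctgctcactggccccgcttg
PSME1 (chr14:24135944-24136243, plus strand): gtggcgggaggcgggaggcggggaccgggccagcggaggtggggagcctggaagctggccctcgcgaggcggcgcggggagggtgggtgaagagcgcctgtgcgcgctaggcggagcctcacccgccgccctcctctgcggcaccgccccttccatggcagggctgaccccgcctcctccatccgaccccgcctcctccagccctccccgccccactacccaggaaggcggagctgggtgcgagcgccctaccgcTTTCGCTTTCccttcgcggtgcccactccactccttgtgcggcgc
PSME2 (chr14:24146561-24146860, minus strand): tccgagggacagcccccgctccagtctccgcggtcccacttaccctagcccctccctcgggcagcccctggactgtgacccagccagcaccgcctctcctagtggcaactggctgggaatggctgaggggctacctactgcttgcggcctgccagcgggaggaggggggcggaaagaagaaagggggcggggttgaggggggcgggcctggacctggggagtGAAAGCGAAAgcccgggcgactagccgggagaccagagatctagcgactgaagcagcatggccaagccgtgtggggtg

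The matched letters were GAAAGCGAAA in PSMB10 and PSME2, and the same letters read on the opposite strand in PSMB8 and PSME1. PSMB9 had no match in its window. TAP1, a peptide transporter gene that starts 488 bases away on the opposite strand, had 2 overlapping matches in a window that shares 13 bases with that of PSMB9. The STAT palindrome TTCNNNGAA was in 5 of 32 constitutive windows and 1 of 6 immune and PA28 windows, where 7.66% of all windows held it. The E-box CACGTG, which MYC and MAX bind, was in 3 of 53 member windows, those of PSMB3, PSMD9 and PSME3, against 7.26% of all windows. TGANTCAGC, a form of the antioxidant response element, was in 1 of 53, that of PSMD9, against 1.36%. A match is a description of letters, and binding was not measured.

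Of 15 listed interferon and class I loading genes, IRF9, a subunit of the factor that binds such elements, passed. IRF9 rose to 40.90 FPKM with hairpin 1 and 34.22 FPKM with hairpin 7, against 8.39 and 10.13 FPKM in the scramble libraries (log2 change 1.91 ± 0.15, SE, limma, adjusted p = 0.0161). The log2 change was 1.79 without scramble 1 and 2.03 without scramble 2, with adjusted p of 0.169 and 0.182 (limma). The list had 1 member higher, against 1.45% of all genes tested, and 0 lower, against 1.11%. Its median log2 change was 0.16. At an unadjusted p under 0.05, 5 of the 15 were higher, against 13.6% of all genes tested, and 2 were lower, against 12.8%. STAT2, another subunit of the same factor, was at 24.75 and 26.06 FPKM in the knockdown libraries, against 16.92 and 15.53 FPKM in the scramble libraries (limma, adjusted p = 0.0563, and 0.0475 with a minimum of 5 FPKM).

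IRF1, a factor known for driving PSMB8, PSMB9 and PSMB10, was at 25.60 and 19.58 FPKM in the knockdown libraries, against 35.26 and 34.91 FPKM in the scramble libraries, and the log2 change of -0.63, with an SE of 0.15, did not pass (limma, adjusted p = 0.0919). TAPBP, which holds HLA class I molecules at the peptide transporter, was at 85.38 and 77.87 FPKM in the knockdown libraries, against 51.25 and 56.05 FPKM in the scramble libraries (limma, adjusted p = 0.0616). TAP1, which shares its promoter region with PSMB9, was at 45.45 and 38.46 FPKM in the knockdown libraries, against 37.47 and 38.35 FPKM in the scramble libraries. TAP2, the other transporter chain, was at 52.04 and 35.59 FPKM in the knockdown libraries, against 53.39 and 41.90 FPKM in the scramble libraries. TAP1 had a log2 change of 0.14 and TAP2 of -0.13, with adjusted p of 0.485 and 0.736 (limma).

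**Figure D2:**
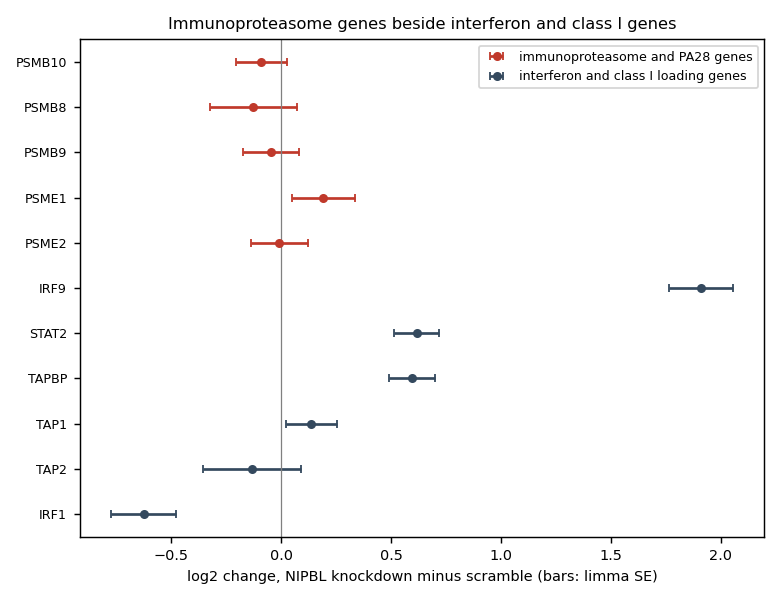
Log2 change of NIPBL knockdown minus scramble for the 5 immunoproteasome and PA28 genes, at the top, and for 6 genes of the interferon and class I loading list that the text describes, below, as points with the limma SE as bars. IRF9 stands at 1.91 and IRF1 at -0.63, while the 5 immunoproteasome and PA28 genes lie between -0.13 and 0.19.

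The differences of the immune genes were of the size seen in the constitutive subunits. The 31 constitutive subunits, those of the alpha ring, the constitutive beta ring and the 19S cap, had a median log2 change of -0.06, and the 5 immunoproteasome and PA28 genes had -0.05. With hairpin 1 the medians were 0.15 for the constitutive subunits and 0.14 for the immune genes, and with hairpin 7 they were -0.21 and -0.18. PSMB8, PSMB9 and PSMB10 together made up 19.1% of the FPKM of the 6 catalytic subunit genes with hairpin 1 and 20.5% with hairpin 7, against 20.7% and 20.8% in the scramble libraries. The mean log2 ratio over the 3 pairs of immune and constitutive subunits was -1.98 ± 0.02 in knockdown and -1.96 ± 0.02 in scramble libraries (SD, n = 2 each). The difference of -0.02 was within the spread of the libraries (exact permutation test, two-sided, p = 0.667, where the smallest p that 2 against 2 libraries allow is 0.333). Without scramble 1 the difference was 0.00026, and without scramble 2 it was -0.03.

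Pair by pair, 2 of the 3 ratios lay on different sides of scramble with the 2 hairpins. The ratio of PSMB8 to PSMB5 was 0.709 with hairpin 1 and 0.426 with hairpin 7, against 0.510 and 0.468 in the scramble libraries. For PSMB9 to PSMB6 it was 0.277 with hairpin 1 and 0.401 with hairpin 7, against 0.318 and 0.346 in the scramble libraries. PSMB10 to PSMB7 gave 0.0764 and 0.0918 in the knockdown libraries, against 0.101 and 0.0947 in the scramble libraries. The first ratio was above scramble with hairpin 1, the second with hairpin 7, and the third was below scramble with both.

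The hairpins placed the constitutive cutting subunits differently. PSMB5, the chymotrypsin-like subunit and the target of proteasome inhibitor drugs, was at 71.85 FPKM with hairpin 1 and 80.93 FPKM with hairpin 7, against 92.55 and 95.32 FPKM in the scramble libraries. PSMB6, the caspase-like subunit, was at 237.77 FPKM with hairpin 1 and 136.75 FPKM with hairpin 7, against 186.15 and 187.74 FPKM in the scramble libraries. PSMB7, the trypsin-like subunit, was at 272.48 and 197.49 FPKM in the knockdown libraries, against 212.97 and 210.53 FPKM in the scramble libraries. Both hairpins were below scramble for PSMB5, as in 30.8% of all genes tested. PSMB6 and PSMB7 were above with hairpin 1 and below with hairpin 7, as were 10.7% of all genes tested. The log2 changes were -0.30 ± 0.10 for PSMB5, -0.05 ± 0.27 for PSMB6 and 0.13 ± 0.17 for PSMB7 (SE), with adjusted p of 0.162, 0.922 and 0.664 (limma).

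**Figure D3:**
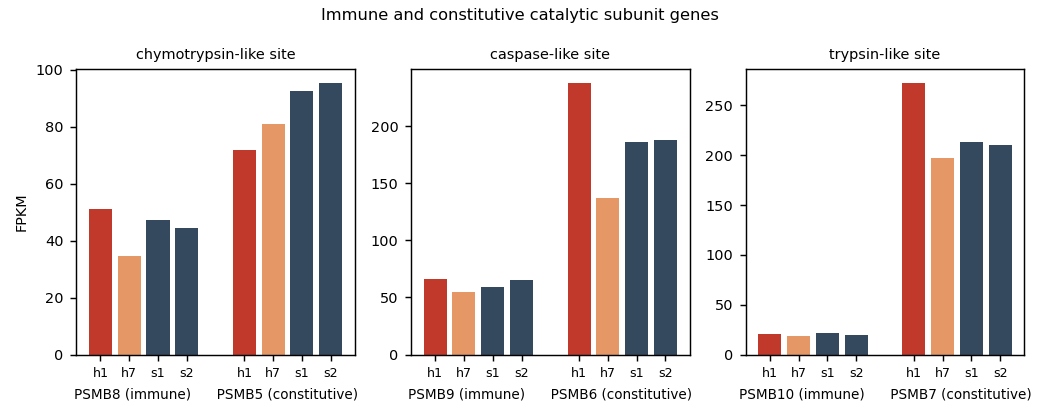
FPKM of each immune subunit gene, left in each panel, and of the constitutive gene it replaces, right, in the libraries with hairpin 1 (h1), hairpin 7 (h7) and scramble 1 and 2 (s1, s2), each bar being 1 library and each axis starting at 0. PSMB8 is closest in level to its counterpart, with ratios of 0.426 to 0.709, and PSMB10 is lowest, with ratios of 0.0764 to 0.101.

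PSMA6 was the alpha ring gene that stood apart. It was at 218.88 FPKM with hairpin 1 and 172.37 FPKM with hairpin 7, against 276.59 and 274.56 FPKM in the scramble libraries. Relative to the scramble mean hairpin 1 was at 79.4% and hairpin 7 at 62.5%. Its groups did not overlap, with both hairpins below scramble, as in 30.8% of all genes tested. Its log2 change of -0.50 ± 0.14 gave the smallest adjusted p of all members and did not pass (SE, limma, adjusted p = 0.118). The other 6 alpha ring genes, PSMA1, PSMA2, PSMA3, PSMA4, PSMA5 and PSMA7, all had hairpin 1 above and hairpin 7 below both scramble libraries. PSMA1 was at 322.08 and 232.62 FPKM in the knockdown libraries, against 283.88 and 288.10 FPKM in the scramble libraries. PSMA4 was at 202.40 and 145.60 FPKM in the knockdown libraries, against 185.33 and 186.31 FPKM in the scramble libraries. PSMA5 was at 128.48 and 86.43 FPKM in the knockdown libraries, against 117.06 and 112.43 FPKM in the scramble libraries. In these 3 genes hairpin 7 was farther from scramble than hairpin 1, as it was in PSMA2 and PSMA3. PSMA2 was at 211.32 and 166.55 FPKM in the knockdown libraries, against 208.59 and 209.22 FPKM in the scramble libraries. PSMA3 was at 143.74 and 116.98 FPKM in the knockdown libraries, against 134.49 and 138.73 FPKM in the scramble libraries. The log2 changes of the 6 lay between -0.15 and 0.02. PSMA7 was the highest of the constitutive subunits in every library, at 622.56 and 461.86 FPKM in the knockdown libraries and 534.13 and 521.90 FPKM in the scramble libraries. The alpha ring summed to 1849 FPKM with hairpin 1 and 1382 FPKM with hairpin 7, against 1740 and 1731 FPKM in the scramble libraries.

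The structural beta genes PSMB1, PSMB2, PSMB3 and PSMB4 had a median log2 change of -0.03, and 0 of 4 were called. With 1.45% of all genes tested called higher and 1.11% lower, that count says little. PSMB1 was at 392.18 and 321.28 FPKM in the knockdown libraries, against 356.41 and 351.74 FPKM in the scramble libraries. PSMB4 was at 393.93 and 347.70 FPKM in the knockdown libraries, against 385.87 and 388.00 FPKM in the scramble libraries. PSMB2, the lowest of them, was at 78.03 and 55.38 FPKM in the knockdown libraries, against 67.84 and 63.86 FPKM in the scramble libraries. These 3 had hairpin 1 above and hairpin 7 below scramble, and for PSMB3 hairpin 1 lay between the scramble values, at 249.31 and 186.70 FPKM in the knockdown libraries and 245.79 and 255.01 FPKM in the scramble libraries. Within a library the constitutive subunits differed 9.21-fold with hairpin 1 and 9.45-fold with hairpin 7 between the highest and the lowest, against 9.03-fold and 8.17-fold in the scramble libraries.

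In the 19S cap the ATPase genes PSMC1 to PSMC6, which unfold and feed the substrate, had a median log2 change of 0.02 with hairpin medians of 0.19 and -0.14. PSMC5 had the widest spread between hairpins, at 171.78 FPKM with hairpin 1 and 120.55 FPKM with hairpin 7, against 129.59 and 133.91 FPKM in the scramble libraries. PSMC2 was at 126.02 and 103.20 FPKM in the knockdown libraries, against 103.00 and 103.02 FPKM in the scramble libraries. Only PSMC2 of the ATPase genes had both hairpins above scramble, as 29.5% of all genes tested had. With hairpin 7 the margin was 0.0026 on the log2 scale over the scramble mean. PSMC1, PSMC3, PSMC5 and PSMC6 had hairpin 1 above and hairpin 7 below, and for PSMC4 hairpin 1 lay between the scramble values. PSMC1 was at 169.47 and 134.28 FPKM in the knockdown libraries, against 147.64 and 140.45 FPKM in the scramble libraries. PSMC3 was at 211.75 and 180.26 FPKM in the knockdown libraries, against 198.98 and 201.48 FPKM in the scramble libraries. For PSMC1, PSMC3 and PSMC6, log2 changes lay between -0.04 and 0.07. PSMC6 was at 117.25 and 92.75 FPKM in the knockdown libraries, against 107.21 and 103.89 FPKM in the scramble libraries. PSMC4 was at 112.77 and 88.14 FPKM in the knockdown libraries, against 108.99 and 113.29 FPKM in the scramble libraries.

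The 11 non-ATPase genes of the cap had log2 changes between -0.28 and 0.16, with 0 called. Over all genes tested, 1.45% were called higher and 1.11% lower. PSMD7, which forms the deubiquitinating pair with PSMD14, was at 67.58 and 72.58 FPKM in the knockdown libraries, against 82.20 and 88.73 FPKM in the scramble libraries (log2 change -0.28 ± 0.10, SE, limma, adjusted p = 0.163). PSMD14, the enzyme that cuts ubiquitin from the substrate, was at 120.42 and 115.72 FPKM in the knockdown libraries, against 135.01 and 131.70 FPKM in the scramble libraries (log2 change -0.17 ± 0.09, SE, limma, adjusted p = 0.284). PSMD7 and PSMD14 were the 2 cap genes with both hairpins below both scramble libraries, a placing that 30.8% of all genes tested had. PSMD8 had both above, as 29.5% of all genes tested had. It was at 156.64 and 131.52 FPKM in the knockdown libraries, against 131.11 and 126.19 FPKM in the scramble libraries. PSMD4, a ubiquitin receptor, was at 164.80 and 136.31 FPKM in the knockdown libraries, against 138.67 and 134.06 FPKM in the scramble libraries. PSMD1 had hairpin 1 above and hairpin 7 below, and for PSMD2, PSMD4 and PSMD11 at least 1 hairpin lay between the scramble values. PSMD1, a scaffold of the base, was at 123.78 and 108.23 FPKM in the knockdown libraries, against 122.80 and 122.34 FPKM in the scramble libraries. PSMD2, the other scaffold, was at 211.00 and 167.29 FPKM in the knockdown libraries, against 212.29 and 193.97 FPKM in the scramble libraries. Hairpin 7 was below both scramble libraries for both scaffolds.

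The lid genes PSMD3, PSMD6, PSMD12 and PSMD13 had hairpin 1 above and hairpin 7 below scramble. PSMD3 was at 70.97 and 48.88 FPKM in the knockdown libraries, against 59.12 and 64.17 FPKM in the scramble libraries. PSMD6 was at 94.33 and 68.07 FPKM in the knockdown libraries, against 82.43 and 83.68 FPKM in the scramble libraries. PSMD13 was at 170.14 and 124.01 FPKM in the knockdown libraries, against 168.59 and 158.76 FPKM in the scramble libraries. Relative to the scramble mean, hairpin 7 stood at -0.33 for PSMD3, -0.28 for PSMD6 and -0.40 for PSMD13 on the log2 scale. PSMD12 was at 86.85 and 73.47 FPKM in the knockdown libraries, against 80.79 and 81.30 FPKM in the scramble libraries. PSMD11, also of the lid, was at 84.32 and 65.67 FPKM in the knockdown libraries, against 69.82 and 65.61 FPKM in the scramble libraries, so that hairpin 7 reached the lower scramble value.

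**Figure D4:**
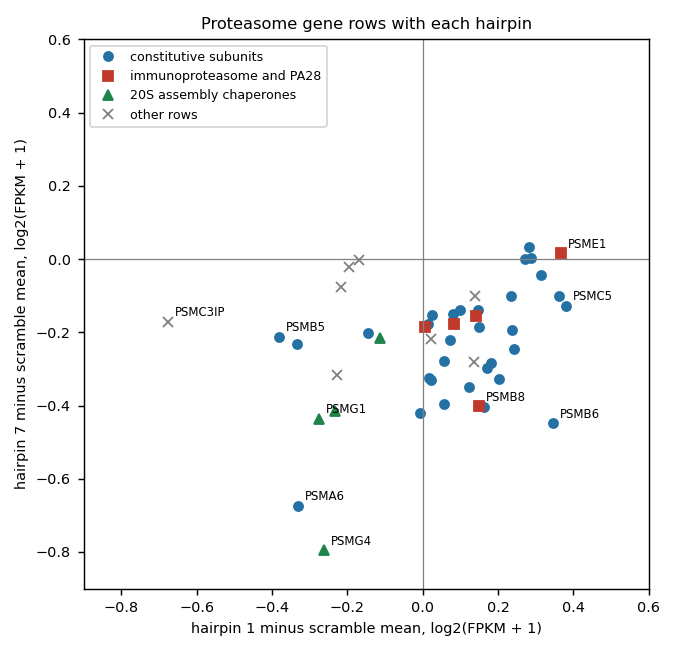
Log2(FPKM + 1) minus the scramble mean with hairpin 1, on the horizontal axis, and hairpin 7, on the vertical axis, for each tested proteasome gene row, coloured by class. Most constitutive subunits lie in the lower right, with medians of 0.15 for hairpin 1 and -0.21 for hairpin 7, and the 20S assembly chaperones lie in the lower left, with medians of -0.25 and -0.43. Both axes use the same 2 scramble libraries.

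For the chaperones that assemble the 20S core both hairpins lay below scramble, and 0 of 4 passed. Over all genes tested, 1.45% passed as higher and 1.11% as lower. PSMG1, which pairs with PSMG2 to build the alpha ring, was at 39.19 and 34.94 FPKM in the knockdown libraries, against 47.35 and 47.93 FPKM in the scramble libraries. PSMG3 was at 23.23 and 20.37 FPKM in the knockdown libraries, against 28.78 and 26.23 FPKM in the scramble libraries. PSMG4, its partner, was at 22.15 FPKM with hairpin 1 and 15.01 FPKM with hairpin 7, against 26.67 and 26.88 FPKM in the scramble libraries. The groups did not overlap for any of these 3 genes. Nor did they for PSMG2, at 63.78 and 59.35 FPKM in the knockdown libraries and 72.35 and 66.07 FPKM in the scramble libraries. Of all genes tested, 30.8% had both hairpins below both scramble libraries.

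POMP, which matures the beta ring and is no member by symbol, was at 136.57 and 115.83 FPKM in the knockdown libraries, against 159.30 and 153.37 FPKM in the scramble libraries. The log2 changes were -0.36 ± 0.10 for PSMG1, -0.17 ± 0.10 for PSMG2, -0.32 ± 0.12 for PSMG3, -0.53 ± 0.19 for PSMG4 and -0.31 ± 0.12 for POMP (SE). Their adjusted p lay between 0.120 and 0.352 (limma). For all 5 genes both hairpins stayed below both scramble libraries as deposited and under the 3 scalings tried. Of all genes tested 30.8% did so as deposited, and 26.9% to 32.4% did under the 3 scalings. Relative to the scramble mean as deposited, hairpin 7 stood at -0.44 for PSMG1, -0.41 for PSMG3 and -0.79 for PSMG4 on the log2 scale. Hairpin 1 stood at -0.28, -0.23 and -0.26 for the same genes. Grouping these 5 genes was done with their values known, and PSMG2, PSMG3 and PSMG4 overlap other genes in GENCODE 29.

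The chaperones of the 19S base had smaller differences. PSMD10 was at 49.67 and 54.83 FPKM in the knockdown libraries, against 57.66 and 58.10 FPKM in the scramble libraries. PSMD9 was at 37.82 and 42.81 FPKM in the knockdown libraries, against 43.57 and 43.35 FPKM in the scramble libraries. PSMD5 was at 22.47 and 18.89 FPKM in the knockdown libraries, against 23.47 and 20.85 FPKM in the scramble libraries. Hairpin 1 was farther below scramble than hairpin 7 for PSMD9 and PSMD10, unlike for most members, and their adjusted p were 0.540 and 0.388 (limma).

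Of the other caps, PSME3, the nuclear PA28 gamma, was at 81.38 and 76.41 FPKM in the knockdown libraries, against 98.80 and 92.17 FPKM in the scramble libraries. Its groups did not overlap, with both hairpins below scramble, as in 30.8% of all genes tested. The log2 change of PSME3 was -0.27 with an SE of 0.10 (limma, adjusted p = 0.166). The ratio of PSME1 to PSME3 was 2.96 and 2.47 in the knockdown libraries, against 1.89 and 2.02 in the scramble libraries. PSME4, the PA200 cap, was at 18.48 and 15.49 FPKM in the knockdown libraries, against 16.56 and 16.82 FPKM in the scramble libraries. PSMF1, the PI31 regulator, was at 100.15 and 74.80 FPKM in the knockdown libraries, against 94.28 and 87.88 FPKM in the scramble libraries. Both had hairpin 1 above and hairpin 7 below scramble.

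A few rows that the symbol rule takes are not part of a working somatic proteasome. PSMC3IP, a recombination cofactor named for binding PSMC3, was at 9.56 FPKM with hairpin 1 and 13.99 FPKM with hairpin 7, against 16.97 and 14.86 FPKM in the scramble libraries (log2 change -0.42 ± 0.20, SE, limma, adjusted p = 0.251). It was 60.1% of the scramble mean with hairpin 1, the lowest share of any tested row with that hairpin. PSMA8, the alpha subunit of germ cells, and PSMB11, the cutting subunit of the thymus, were listed at 0 in all 4 libraries. PSMA1 and PSMA2 each had a second row, ENSG00000256206 and ENSG00000256646, to which GENCODE 29 gives other names. The second PSMA1 row lay under the filter at 0.20 and 0.09 FPKM in the knockdown libraries, against 0.25 and 0.25 FPKM in the scramble libraries. The second PSMA2 row was at 9.61 and 10.91 FPKM in the knockdown libraries, against 10.56 and 11.30 FPKM in the scramble libraries. Both overlap the main gene, so their reads may be shared with it.

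The genes around the proteasome showed 0 calls among 11 bound and assembly proteins and 0 among 14 ubiquitin and shuttle genes. Of all genes tested 1.45% were called higher and 1.11% lower, so 0 calls in lists this short say little. UCHL5, a deubiquitinase of the cap, was at 54.91 and 55.43 FPKM in the knockdown libraries, against 70.14 and 70.73 FPKM in the scramble libraries (log2 change -0.35 ± 0.09, SE, limma, adjusted p = 0.0973). The log2 change of UCHL5 was -0.35 with hairpin 1 and -0.34 with hairpin 7, both against the same 2 scramble libraries. ADRM1 and SEM1, both parts of the 19S cap, were above scramble with hairpin 1 and below with hairpin 7, as was TXNL1, with log2 changes of -0.03, -0.02 and 0.17. The shuttle factor gene UBQLN4 and RPS27A, a fusion of ubiquitin and a ribosomal protein, had log2 changes of -0.19 and -0.27, with adjusted p of 0.276 and 0.291 (limma).

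NFE2L1, which in mammals drives proteasome genes when proteasome activity is blocked, was at 65.12 and 54.97 FPKM in the knockdown libraries, against 60.29 and 44.07 FPKM in the scramble libraries. Its scramble values enclosed hairpin 7, and its log2 change was 0.21 ± 0.18 (SE, limma, adjusted p = 0.499). Of the 8 genes of this axis 0 were lower, against 1.11% of all genes tested, and 1 was higher, against 1.45%. That was MAFK, a small MAF partner of NFE2L1, which rose to 19.52 and 18.03 FPKM in the knockdown libraries, against 9.55 and 9.49 FPKM in the scramble libraries (log2 change 0.91 ± 0.10, SE, limma, adjusted p = 0.0316). Its log2 change was 0.91 without scramble 1 and 0.91 without scramble 2, with adjusted p of 0.416 and 0.439 (limma), in fits that called 0 genes. NGLY1, the enzyme that removes sugars from NFE2L1, and MAFG had log2 changes of 0.38 and 0.35, with adjusted p of 0.114 and 0.130 (limma).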

How the data were processed

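RNA sequencing of total RNA from 4 NUGC3 libraries was taken from the deposited gene table, whose FPKM values the authors made with 2 decimals. STAR and RSEM are named, without versions, in the submitters' processing notes. The sources used here do not give the build, annotation, strand setting or any filter, so overlapping genes cannot be told apart. Of the member rows 31 overlap another gene in GENCODE 29, to which 50 of 51 matched. Reads of near copies may be split by RSEM. Of 30 pseudogene rows under member symbols, 21 were at 0 in all libraries and the highest value was 6.38 FPKM. The 291033 rows without a gene name were not tested.

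The test was limma 3.58.1 (R 4.3.3, eBayes with a mean trend), run on log2(FPKM + 1) over the 12834 Ensembl rows with a mean of at least 1 FPKM, with two-sided p adjusted by Benjamini and Hochberg over all of them and a threshold of 0.05. The scale understates changes of low genes. Degrees of freedom were 2 residual and 2.87 prior, and 95% intervals use both. The fit was tested on simulated data with normal noise, for the size of changes and the sign of large ones. No limit on missed or false calls was set there. Medians over lists are descriptions. The named genes were NIPBL, every member, and from 4 lists of related genes those called, the 3 with the smallest p and POMP, NFE2L1, IRF1, TAP1 and TAP2, with a few genes of the lists not reported here. ADRM1, SEM1 and the marker genes fall outside that rule and were named after their values were seen. The members and lists were chosen with earlier results of these data known. Alternatives changed the pseudocount, the filter, the scaling, the trend and the libraries used. Counts of the hairpin pattern under the other scalings were added after seeing the data.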

Additional observations from a re-analysis of the deposited data

How the results depend on the processing

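No member was called with a pseudocount of 0.1, a minimum of 5 FPKM, any of the 3 other scalings, no mean trend or the scramble libraries averaged. With no filter on low values limma called 2574 genes, and PSMA6 and PSMG4, 2 members, were lower, but it warned that its variance estimate is unreliable there. Averaging the scramble libraries left 0 genes called and 975 at an unadjusted p under 0.05, and NIPBL, IRF9 and MAFK were not called there (limma, adjusted p = 0.267, 0.171 and 0.452). Leaving out 1 library gave between 0 and 4532 genes called, between 0 and 9 members higher and between 0 and 23 members lower. The immune to constitutive ratio then ran between -0.031 and 0.00026. Leaving out 1 library turned the sign of the log2 change of these uncalled genes, with ranges of NFE2L1 -0.011 to 0.43, PSMA1 -0.30 to 0.17, PSMA2 -0.33 to 0.017, PSMA3 -0.22 to 0.073, PSMA4 -0.35 to 0.12, PSMA5 -0.40 to 0.16, PSMA7 -0.19 to 0.24, PSMB1 -0.14 to 0.15, PSMB2 -0.25 to 0.24, PSMB4 -0.15 to 0.026, PSMB6 -0.45 to 0.35, PSMB7 -0.10 to 0.36, PSMB8 -0.40 to 0.15, PSMB9 -0.18 to 0.083, PSMB10 -0.19 to 0.0047, PSMC1 -0.10 to 0.23, PSMC3 -0.15 to 0.080, PSMC4 -0.33 to 0.021, PSMC5 -0.13 to 0.38, PSMC6 -0.18 to 0.15, PSMD1 -0.18 to 0.014, PSMD2 -0.28 to 0.056, PSMD3 -0.33 to 0.20, PSMD4 -0.00037 to 0.27, PSMD5 -0.22 to 0.021, PSMD6 -0.28 to 0.18, PSMD11 -0.043 to 0.31, PSMD12 -0.14 to 0.10, PSMD13 -0.40 to 0.056, PSME2 -0.16 to 0.14, PSME4 -0.10 to 0.14, PSMF1 -0.28 to 0.14, TAP2 -0.40 to 0.13, TXNL1 -0.0087 to 0.34. Rescaling to the same sum turned PSMB2 (0.044), PSMC3 (0.011), PSMC6 (0.029), PSMD12 (0.026), PSME2 (0.039), and quantile normalization turned PSMB2 (0.026), PSMC3 (0.0064), PSMC6 (0.014), PSMD12 (0.0049), PSME2 (0.035). Centring on the median turned PSMB1 (-0.0090). No paired analysis was possible because the labels give the groups no shared replicate numbers. Read depth is unknown, so no counting error can be set beside a value.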
